A study of Mus musculus with 6 samples.

Results

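The host lipogenic enzymes and regulators are 10 mouse genes, Fasn, Scd1, Acaca, Acly, Thrsp, Elovl6, Me1, Srebf1, Dgat2 and Lpl. They were taken by gene name from the mouse count table, which holds 55536 named rows, and all 10 passed the filter on low counts, which left 14459 mouse genes. The tumours grew under the skin of male nude mice injected with DU145, a human epithelial line from prostate cancer, so each tumour holds human cancer cells and mouse host tissue. The 3 Zelnorm tumours came from mice given Zelnorm (tegaserod) by mouth every day, at a dose the labels do not give, and the 3 control tumours from mice labelled control. The sample titles of the treated group carry MBZ in place of Zelnorm, so the comparison is between the groups as labelled. Both groups share the cell line, the sex and kind of host and the site of injection, and the labels do not name the animals, so the spread between the samples may be technical in part. The Zelnorm libraries are named MBZ_254, MBZ_257 and MBZ_259 and the control libraries NC10, NC4 and NC9, after their columns.

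De novo lipogenesis turns surplus carbohydrate into fat. Citrate is split into acetyl-CoA, which is carboxylated, built into palmitate with reducing power from NADPH, lengthened, desaturated and stored as triglyceride, while lipoprotein lipase brings in fatty acids from the blood. The transcription factor SREBP-1 switches on most of these genes, and liver, fat cells and sebaceous glands use the pathway most in the mouse, while many cancer cells run it at a high rate.

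The members were chosen by name with the earlier log2 fold changes of Zelnorm against control in the same mouse table in view. Their mouse values in Zelnorm against control tumours are therefore given as a description, with no test. There, 3 members, Thrsp, Scd1 and Fasn, had a log2 fold change below -1, as did 1.17% of all tested mouse genes, and the other 7 lay within 0.5 of 0. All Zelnorm tumours lay below all control tumours for 2 members, Thrsp and Fasn, which was so for 3.002% of all tested mouse genes. A log2 fold change below 0 was seen for 8 of 10 members and for 46.1% of all tested genes, and the median was -0.26 over the members and 0.02 over all tested genes. edgeR's quasi-likelihood test called 0 mouse genes, which is 0.00% of those tested, with 253 genes, or 1.75%, at an unadjusted p under 0.05. DESeq2 called 6 mouse genes, or 0.0416%, with Thrsp the member among them, and limma-voom called 0 (0.00%). Since the rule used this contrast, nothing is read from these counts.

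Promoter windows from RefSeq on GRCm38.p6, from 250 bases before to 50 bases after a start site, were found for 7 of the 10 members. They are shown for Thrsp and Fasn, the members whose groups did not overlap, for Acly, whose groups overlapped fully, and for 1 of the starts of Srebf1, which encodes SREBP-1 itself. Capitals mark CCAAT (bound by NF-Y), GGGCGG (bound by SP1) and TCACCC (the core of a sterol response element), on either strand. The windows lie at chr7:97417501-97417800 for Thrsp, chr11:120824498-120824797 for Fasn, chr11:100527951-100528250 for Acly and chr11:60210422-60210721 for Srebf1, all on the minus strand, and are written 5′ to 3′ along the gene.
Thrsp: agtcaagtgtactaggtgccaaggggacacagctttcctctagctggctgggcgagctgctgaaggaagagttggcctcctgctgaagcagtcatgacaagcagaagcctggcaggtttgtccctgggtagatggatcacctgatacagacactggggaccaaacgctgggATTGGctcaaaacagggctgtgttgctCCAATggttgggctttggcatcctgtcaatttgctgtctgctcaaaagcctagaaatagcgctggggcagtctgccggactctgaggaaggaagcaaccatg
Fasn: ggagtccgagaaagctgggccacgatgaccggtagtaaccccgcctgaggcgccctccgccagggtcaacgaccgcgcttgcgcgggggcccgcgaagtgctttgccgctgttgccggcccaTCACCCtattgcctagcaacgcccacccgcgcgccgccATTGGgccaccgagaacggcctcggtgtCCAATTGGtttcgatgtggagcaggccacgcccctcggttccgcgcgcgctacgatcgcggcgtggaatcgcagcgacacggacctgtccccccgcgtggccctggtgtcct
Acly: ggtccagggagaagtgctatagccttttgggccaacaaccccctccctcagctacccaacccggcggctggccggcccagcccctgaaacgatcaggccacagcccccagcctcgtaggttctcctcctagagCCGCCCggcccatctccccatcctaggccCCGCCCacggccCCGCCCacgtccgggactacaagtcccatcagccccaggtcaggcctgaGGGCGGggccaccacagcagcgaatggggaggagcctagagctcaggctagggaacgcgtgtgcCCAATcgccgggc
Srebf1: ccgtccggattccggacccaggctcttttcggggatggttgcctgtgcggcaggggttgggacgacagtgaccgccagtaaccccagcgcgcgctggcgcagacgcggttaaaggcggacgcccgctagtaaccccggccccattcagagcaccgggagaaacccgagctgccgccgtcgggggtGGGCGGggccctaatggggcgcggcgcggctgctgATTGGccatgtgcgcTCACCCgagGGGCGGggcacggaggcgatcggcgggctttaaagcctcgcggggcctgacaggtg
The Thrsp window held CCAAT in either orientation 2 times, with first bases at -79 and -52 from the start site. The Fasn window held it 3 times, at -90, -62 and -59, of which the last pair overlap in a palindrome, and TCACCC at -128. The Acly window held GGGCGG 4 times, between -117 and -27, and CCAAT once, at 38 bases after the start. The Srebf1 window had CCAAT at -30, TCACCC at -15 and GGGCGG at -65 and -6. It was the only Srebf1 window with TCACCC. Among the member windows not shown, only a window of Me1 held TCACCC. Among 32851 promoter windows of the same length, 37.4% held CCAAT, 35.7% GGGCGG and 16.2% TCACCC on either strand. CACGTG and TATAAA, searched likewise and present in 7.15% and 13.6% of windows, were in none of the member windows. The letters describe these windows and say nothing of which factor was bound.

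The largest difference was that of Thrsp, which encodes a small nuclear protein, also called Spot 14, that is known to promote lipogenesis in liver and fat (ENSMUSG00000035686, GRCm38 chromosome 7 from 97412938 to 97417730). It had 17 counts in MBZ_254, 1 in MBZ_257 and 8 in MBZ_259, against 47 in NC10, 111 in NC4 and 52 in NC9. All 3 Zelnorm tumours lay below all 3 control tumours. Levels in CPM, the counts as a rate per total count of the mouse table, were 1.09 ± 0.999 in Zelnorm and 9.19 ± 4.60 in control tumours (SD, n = 3 each), a log2 fold change of -3.00 (SE 0.66). Human THRSP had 0, 2 and 0 counts in MBZ_254, MBZ_257 and MBZ_259 and 0, 0 and 3 in NC10, NC4 and NC9. For a library with no THRSP count, 3 counts would correspond to 0.0816 to 0.122 CPM of the human table. The mouse counts of Thrsp thus had next to no human count beside them, 236 against 5 over the 6 tumours.

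Fasn encodes fatty acid synthase, which builds palmitate (ENSMUSG00000025153, chromosome 11 from 120805846 to 120824547). It was at 54.5 CPM in MBZ_254, 48.7 in MBZ_257 and 58.7 in MBZ_259, against 93.6 CPM in NC10, 182 in NC4 and 86.9 in NC9. The groups did not overlap, and the Zelnorm tumours were close to each other while NC4 stood above the other controls. The means were 54.0 ± 5.06 CPM in Zelnorm and 121 ± 53.0 CPM in control tumours, a log2 fold change of -1.16 (SE 0.29), which was -0.74 without NC4. Human FASN had 5257, 8141 and 8880 counts in MBZ_254, MBZ_257 and MBZ_259 and 5456, 7051 and 8174 in NC10, NC4 and NC9, far above the 263 to 1403 mouse counts.

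Scd1 encodes a stearoyl-CoA desaturase, which makes monounsaturated fatty acids (ENSMUSG00000037071, chromosome 19 from 44394455 to 44407879). It was at 86.4 CPM in MBZ_254, 71.2 in MBZ_257 and 40.2 in MBZ_259, against 81.6 CPM in NC10, 295 in NC4 and 94.5 in NC9. The groups overlapped, since MBZ_254 lay above NC10, and NC4 was 3.35 times the mean of the other controls. The log2 fold change was -1.25 (SE 0.51), but it was -0.42 without NC4. The human counterpart has the symbol SCD and had 24612 to 38910 counts in the Zelnorm tumours and 22822 to 35918 in the control tumours. With human reads subtracted at the median rate of tumour epithelial genes, as described below, the log2 fold change of Scd1 was -2.43 (SE 1.36), the member value that this subtraction moved most. The subtraction left 425, 38 and 0 Scd1 counts in MBZ_254, MBZ_257 and MBZ_259, against 260, 1865 and 380 in NC10, NC4 and NC9, so this value rests in part on a tumour set to 0.

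Dgat2, which encodes an enzyme of the last step of triglyceride synthesis (ENSMUSG00000030747, chromosome 7 from 99153658 to 99182719), was at 21.6, 31.1 and 20.7 CPM in MBZ_254, MBZ_257 and MBZ_259, against 27.9, 40.4 and 28.9 CPM in NC10, NC4 and NC9. MBZ_257 lay among the controls. Its log2 fold change was -0.41 (SE 0.23), and -0.22 without NC4. Human DGAT2 had 4510 counts over the 6 tumours, against 1271 mouse counts. Lpl, which encodes the lipoprotein lipase that frees fatty acids from circulating triglyceride (ENSMUSG00000015568, chromosome 8 from 68880491 to 68907448), was at 144, 68.8 and 84.9 CPM in the Zelnorm tumours, against 99.1, 159 and 120.2 CPM in the control tumours, in the same order. The groups overlapped widely, and the log2 fold change was -0.34 (SE 0.30), from -0.73 without MBZ_254 to -0.13 without MBZ_257. Human LPL had 26, 10 and 16 counts in the Zelnorm tumours and 17, 29 and 30 in the control tumours, 128 in all against 5201 mouse counts. Srebf1, which encodes SREBP-1 (ENSMUSG00000020538, chromosome 11 from 60199089 to 60222581), was at 41.3 ± 6.15 CPM in Zelnorm and 46.6 ± 8.33 CPM in control tumours, with a log2 fold change of -0.17 (SE 0.19) and overlapping groups. Its exons overlap those of Rai1 on the other strand, and with a kit not stated to keep the strand the reads of that overlap cannot be assigned. Human SREBF1 had 10470 counts over the 6 tumours, against 2007 mouse counts of Srebf1.

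**Figure D1:**
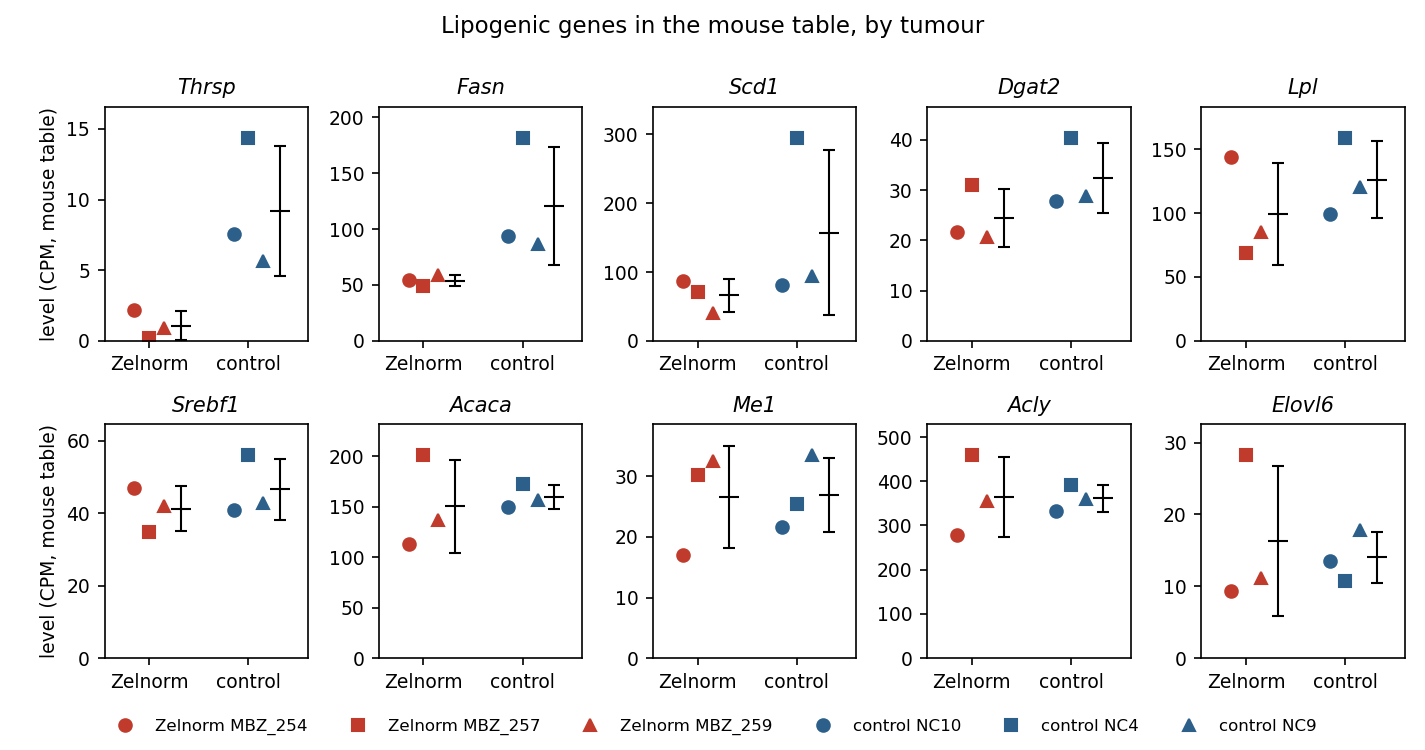
Level of each lipogenic gene in CPM of the mouse table (linear axes from 0), 1 point per tumour, with the mean and SD (n = 3) as a bar beside each group. For Thrsp and Fasn all Zelnorm tumours lie below all control tumours, the groups overlap for the other 8 genes, and NC4 is the highest tumour for 6 genes.

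Acaca, Acly, Me1 and Elovl6 lay near 0. Acly encodes ATP citrate lyase, which makes acetyl-CoA from citrate (ENSMUSG00000020917, chromosome 11 from 100476353 to 100528000). It was at 278, 459.95 and 354 CPM in MBZ_254, MBZ_257 and MBZ_259, against 332, 392 and 360.2 CPM in NC10, NC4 and NC9, a log2 fold change of 0.01 (SE 0.21). Acaca encodes acetyl-CoA carboxylase 1, the committed step of fatty acid synthesis (ENSMUSG00000020532, chromosome 11 from 84129672 to 84401651). It was at 113, 201 and 137 CPM in the Zelnorm tumours, against 149.9, 172 and 157 CPM in the control tumours (log2 fold change -0.09, SE 0.23). The Zelnorm tumours MBZ_254 and MBZ_257 were the lowest and the highest of the 6 for both genes. Over the 6 tumours human ACLY had 54692 counts against 16188 of mouse Acly, and human ACACA 34352 against 6880 of mouse Acaca.

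Me1 encodes cytosolic malic enzyme, a source of NADPH (ENSMUSG00000032418, chromosome 9 from 86581371 to 86695953). It was at 17.0, 30.2 and 32.6 CPM in MBZ_254, MBZ_257 and MBZ_259, against 21.6, 25.4 and 33.6 CPM in NC10, NC4 and NC9 (log2 fold change -0.02, SE 0.28). Elovl6 encodes the elongase that lengthens palmitate (ENSMUSG00000041220, chromosome 3 from 129532355 to 129638495). It was at 9.40, 28.3 and 11.2 CPM in the Zelnorm tumours, against 13.5, 10.8 and 17.8 CPM in the control tumours (log2 fold change 0.20, SE 0.42). MBZ_257 was the highest tumour and MBZ_254 the lowest for Elovl6, as for Acaca and Acly. The sign of these 4 fold changes turned when single tumours were left out, from -0.43 to 0.47 for Elovl6, from -0.18 to 0.16 for Acly, from -0.20 to 0.21 for Me1 and from -0.34 to 0.07 for Acaca. It also turned for Acly and Elovl6 with limma-voom and with the counts scaled to both tables together. Exons of Elovl6 and Me1 overlap antisense transcripts (Gm35986 and A330041J22Rik), whose reads cannot be told apart without strand. Over the 6 tumours human ME1 had 20146 counts against 1222 of mouse Me1, and human ELOVL6 4195 against 656 of mouse Elovl6.

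The members did not vary as 1 block from tumour to tumour. NC4 was the highest of the 6 tumours for Fasn, Scd1, Thrsp, Srebf1, Dgat2 and Lpl, and MBZ_257 for Acaca, Acly and Elovl6. MBZ_254 was the lowest for Acaca, Acly, Elovl6 and Me1, and MBZ_257 for Fasn, Thrsp, Srebf1 and Lpl. Within the control group alone NC4 was at 2.18 times the mean of the other controls for Thrsp and 2.01 times for Fasn, against 1.12 times for Acaca, 1.13 times for Acly and 0.688 times for Elovl6. Averaged over the 10 genes, the deviation of log2 CPM from each gene's own mean was -0.27, -0.27 and -0.40 in MBZ_254, MBZ_257 and MBZ_259 and 0.08, 0.65 and 0.21 in NC10, NC4 and NC9.

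**Figure D2:**
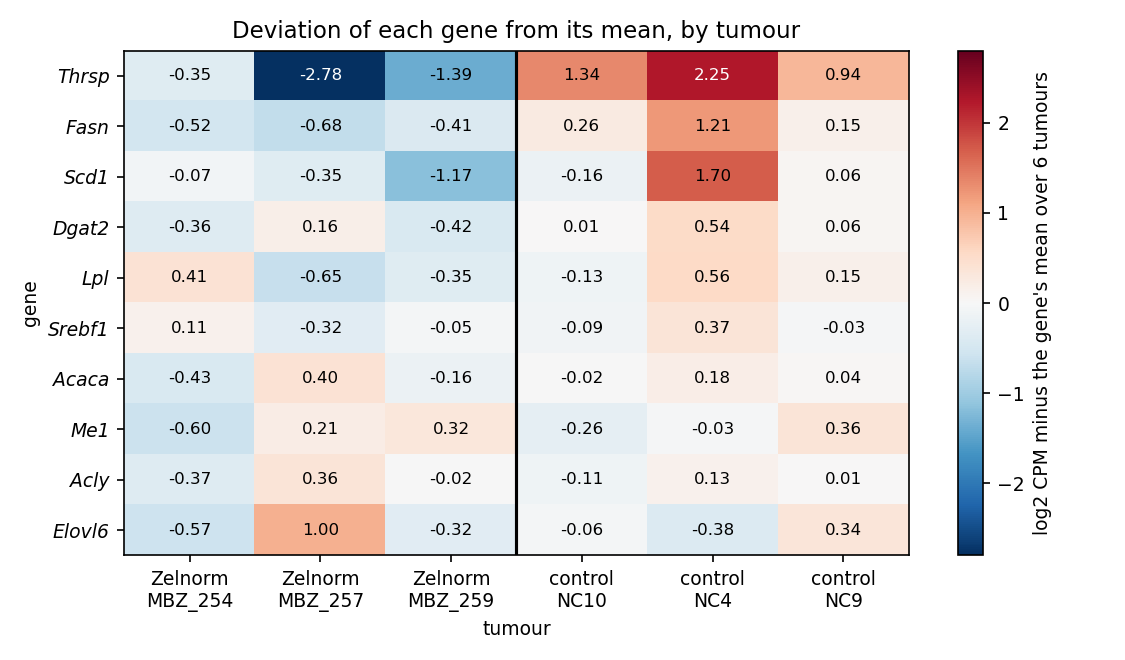
Log2 CPM of each lipogenic gene in the mouse table minus its mean over the 6 tumours, with Zelnorm tumours left of the line and control tumours right of it. Thrsp runs from -2.78 in MBZ_257 to 2.25 in NC4, whereas Elovl6 is highest in MBZ_257 at 1.00.

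Per length of the annotated exons, Acly had the highest level of the 10 genes in the mouse table, at 69.0 ± 17.3 CPM per kilobase in Zelnorm and 68.5 ± 5.69 in control tumours. Scd1 followed at 13.5 ± 4.81 in Zelnorm and 32.1 ± 24.5 in control tumours. By the mean over the 6 tumours, Lpl (10.8 CPM per kilobase), Dgat2 (9.22), Acaca (9.08), Fasn (7.98), Srebf1 (7.80) and Me1 (6.95) came next, and Elovl6 (2.36) and Thrsp (2.35) last. The ranges over the 6 tumours of neighbours in this order overlapped, as for Acly, 52.7 to 87.1, and Scd1, 8.22 to 60.4, except that Me1, at 4.42 to 8.72, lay just above Elovl6, at 1.46 to 4.402. The order differed between the groups: Thrsp was at 0.496 ± 0.456 in Zelnorm tumours, below Elovl6 at 2.54 ± 1.62, and at 4.20 ± 2.10 in control tumours, above Elovl6 at 2.18 ± 0.554. Fasn was likewise at 4.93 ± 0.463 in Zelnorm tumours, below Srebf1 and Me1, and at 11.035 ± 4.84 in control tumours, above both of these, Dgat2 and Acaca.

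The human counterparts were not used to choose the members and were read against the test over all 18820 human genes. edgeR called 0 of these (0.00%), with 247 genes, or 1.31%, at an unadjusted p under 0.05, DESeq2 called 1 (0.00532%), which was no counterpart, and limma-voom called 0 (0.00%). Of the 9 counterparts tested, THRSP being too low, 0 passed, each with an edgeR adjusted p of 1.00. FASN was at 237 ± 20.3 CPM of the human table in Zelnorm and 228 ± 38.4 CPM in control tumours, a log2 fold change of 0.05 (SE 0.14). SCD was at 979 ± 110.2 and 962 ± 137 CPM in Zelnorm and control tumours (log2 fold change 0.03, SE 0.14). ACLY had a log2 fold change of -0.08 (SE 0.14), ACACA of -0.03 (SE 0.13), ME1 of 0.03 (SE 0.20), SREBF1 of 0.08 (SE 0.12) and ELOVL6 of 0.14 (SE 0.31). DGAT2, at 22.1 ± 1.62 CPM in Zelnorm and 27.3 ± 5.85 CPM in control tumours, had -0.30 (SE 0.17), and LPL, at 0.603 ± 0.399 and 0.84 ± 0.249 CPM, had -0.51 (SE 0.48). Mouse Lpl had 3635 to 4644 counts per 100 human LPL counts in every tumour, the highest ratio being 1.28 times the lowest. The part of mouse reads in the human LPL count was not tested. A fold change below 0 was seen for 4 of 9 counterparts and for 50.9% of all tested human genes. The groups overlapped for all 9, where 2.31% of human genes had all Zelnorm tumours below and 2.52% above all control tumours.

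**Figure D3:**
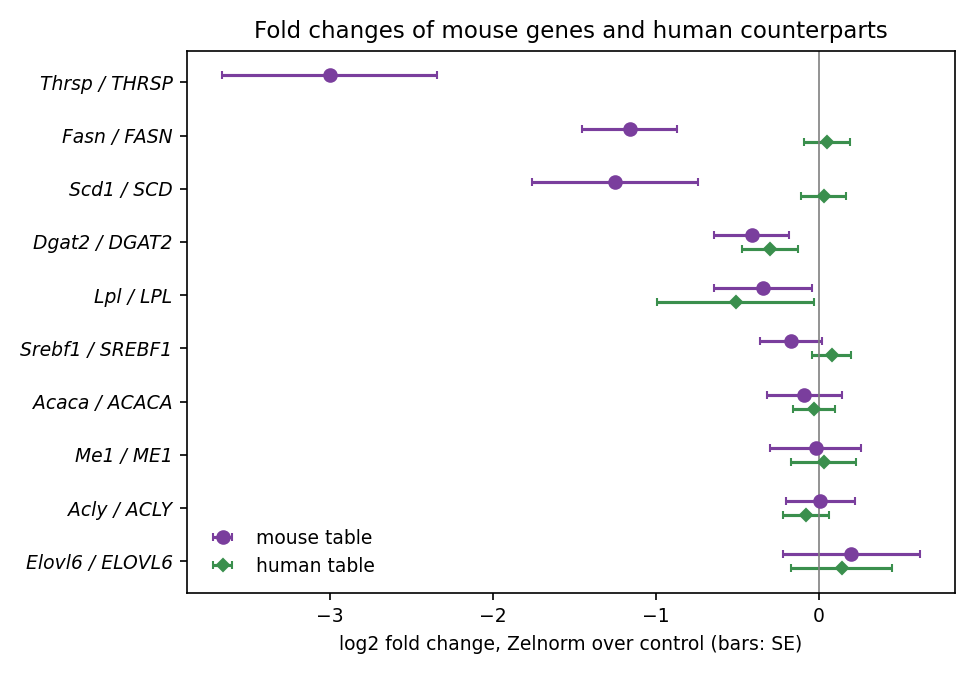
Log2 fold change of Zelnorm over control tumours (points, bars are SE, n = 3 each) for each mouse gene and for its human counterpart in the human table. Thrsp, Scd1 and Fasn lie below -1 in the mouse table, the human FASN and SCD lie within 0.1 of 0, THRSP was too low to test, and the signs of the mouse values of Acaca, Acly, Me1 and Elovl6 and of the human values other than SREBF1, DGAT2 and LPL turned when single tumours were left out.

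Whether reads of the human cells could stand in the mouse table was looked at with 20 epithelial genes of the tumour cells. The mouse table held 5817165 to 9228446 counts per library and that of human genes held 24602178 to 39278195 of them, and the mouse share of both was 23.4%, 15.1% and 19.7% in MBZ_254, MBZ_257 and MBZ_259 and 19.2%, 22.3% and 19.0% in NC10, NC4 and NC9. The human table carried the epithelial identity of the line, with 51864 to 89461 counts of KRT8 and 8922 to 16213 of EPCAM per library. The mouse table held few counts of some tumour epithelial genes, such as 0.0216 Epcam counts per 100 human EPCAM counts and 0.0859 for Lamb3, but more of others, such as 10.7 for Krt8 and 13.0 for Dsp, up to 42.2 for Itga6. Host cells could also make some of these transcripts, so a high ratio need not mean human reads. Their part was not tested. The ratio of Krt8 stayed between 9.95 and 11.4 in every tumour, while the median ratio of same-symbol pairs, 21.5, 11.8 and 16.8 in MBZ_254, MBZ_257 and MBZ_259 and 16.3, 20.2 and 16.0 in NC10, NC4 and NC9, followed the mouse share.

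Measured in the same way, Acly had 31.9, 25.7 and 29.9 mouse counts per 100 human ACLY counts in the Zelnorm tumours and 29.3, 32.1 and 29.3 in the control tumours. Its highest ratio was 1.25 times the lowest. That of Acaca was 1.46 times, that of Elovl6 1.57 times and that of Dgat2 1.67 times, where the median over 5983 pairs was 1.86 times. For these 4 genes the ratio varied less between tumours than at the median pair. The Pearson correlation of log2 CPM between mouse gene and human counterpart was 0.98 for Elovl6, 0.75 for Acaca, 0.61 for Dgat2 and 0.48 for Acly. These values over 6 tumours carry no test. Human ELOVL6 was highest in MBZ_257, at 35.7 CPM of the human table, and lowest in MBZ_254, at 14.5 CPM. MBZ_257, the tumour with the smallest mouse share, was the highest of the 6 in Acaca, Acly and Elovl6 and also in the summed level of the 20 tumour epithelial genes in the mouse table, 3094 CPM, and MBZ_254, with the largest share, was the lowest in all of these, 1924 CPM for the epithelial sum. The part of human reads in these mouse levels was not tested.

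The ratio of Fasn varied 6.16 times and that of Scd1 8.69 times. Fasn had 8.16, 3.23 and 5.79 mouse counts per 100 human FASN counts in MBZ_254, MBZ_257 and MBZ_259, against 10.7, 19.9 and 9.79 in NC10, NC4 and NC9, again without overlap of the groups. Scd1 had 2.76, 1.38 and 0.905 in the Zelnorm tumours, against 2.23, 7.86 and 2.42 in the control tumours, a ratio lower than that of all but 6.99% of the 6055 pairs whose human gene averaged at least 1000 counts. Me1 varied 2.29 times, between 3.46 and 7.94, and Srebf1 3.004 times, between 9.68 in MBZ_257 and 29.1 in MBZ_254. Subtracting from each mouse count the human count times the median ratio of the tumour epithelial genes in that library (1.04 to 1.42 per 100) gave a log2 fold change of -1.39 for Fasn and -3.02 for Thrsp. Single epithelial genes had other ratios, such as 0.0216 for Epcam and 10.7 for Krt8, so any human reads entering at a higher rate would stay. The Fasn ratio lay below that of Krt8 in all Zelnorm tumours and in NC9. The part of human reads in the Fasn level was not tested.

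**Figure D4:**
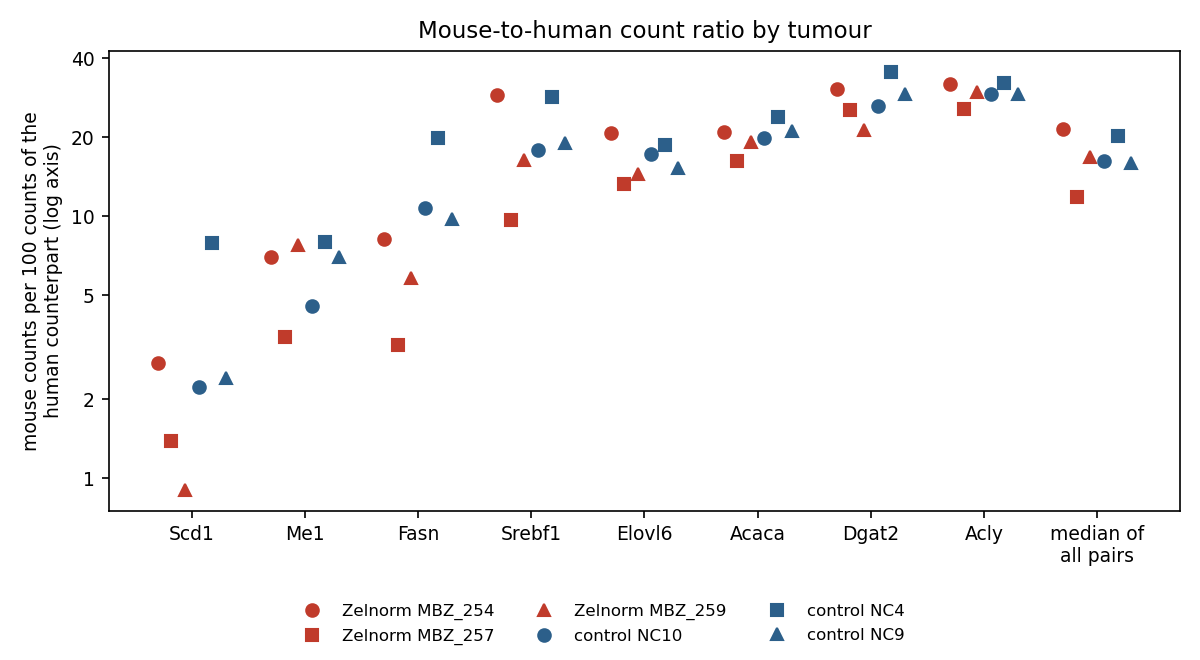
Mouse counts per 100 counts of the human counterpart in each tumour (log axis), for the 8 members other than Thrsp and Lpl, whose counterparts were near their limit, and for the median of all same-symbol pairs. Acly and Acaca lie within a narrow band in all tumours, whereas Fasn runs from 3.23 to 19.9 and Scd1 from 0.905 to 7.86.

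Genes of fat cells lay lower beside Thrsp, Fasn and Scd1. Markers of fibroblasts and preadipocytes and of endothelium had median fold changes below 0 by less, but their sums were not lower in every Zelnorm tumour. Of 16 adipocyte markers 14 were measurable, and 12 of these lay lower in the Zelnorm tumours, around a median of -1.33 on the log2 scale. Of all tested mouse genes 46.1% lay below 0. edgeR called 0 of the markers, with 8 at an unadjusted p under 0.05, against 1.75% of all tested genes. DESeq2 called 1, Cfd, against 0.0416% of all genes. Cfd encodes the fat cell protease adipsin and was at 27.6 ± 17.6 CPM in Zelnorm and 152 ± 74.96 CPM in control tumours (edgeR log2 fold change -2.47, SE 0.56). All Zelnorm tumours lay below all control tumours for 7 of the 14 adipocyte markers, which was so for 3.002% of all tested mouse genes. The list was chosen with earlier results of these data known, so its counts are a description. The summed level of the adipocyte markers was 375, 240.2 and 335 CPM in MBZ_254, MBZ_257 and MBZ_259, against 424, 1157 and 745 CPM in NC10, NC4 and NC9. The groups did not overlap in this sum, but for the sum this rested on Car3, at 53.2 CPM in MBZ_254 and 116 CPM in NC10. Without Car3 the sum of MBZ_254 lay above that of NC10. NC4 was the highest tumour here as it was for Thrsp, Fasn and Scd1. Adipoq, which encodes the fat hormone adiponectin, was at 5.83 ± 4.70 CPM in Zelnorm and 24.7 ± 9.16 CPM in control tumours (log2 fold change -2.09, SE 0.67), and Fabp4, a fatty acid carrier of fat cells and macrophages, at 93.9 ± 52.0 and 152 ± 74.5 CPM (-0.69, SE 0.45). Car3 had a log2 fold change of -1.71 (SE 0.57). Pparg and Cebpa, the transcription factors of fat cell formation, had -0.08 (SE 0.27) and 0.01 (SE 0.15). Of the fibroblast and preadipocyte markers 12 of 12 lay lower, around a median of -0.45, with sums of 32751, 14279 and 29210 CPM in MBZ_254, MBZ_257 and MBZ_259, against 27436, 44302 and 26791 CPM in NC10, NC4 and NC9. Of the endothelial markers 9 of 10 lay lower, around a median of -0.15, with sums of 1293, 769 and 1105 CPM in the Zelnorm tumours, against 979.55, 1448.5 and 1060 CPM in the control tumours, in the same order. NC4 had the highest and MBZ_257 the lowest sum in both lists, while MBZ_254 and MBZ_259 lay above NC10 and NC9. The groups thus overlapped in both, and edgeR, DESeq2 and limma-voom called 0 markers of either list, with 2 and 1 at an unadjusted edgeR p under 0.05. In bulk tissue, fewer fat cells and less RNA per fat cell cannot be told apart. The part of fat cells, fibroblasts and endothelium in the levels of Thrsp, Fasn and Scd1 was not tested.

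**Figure D5:**
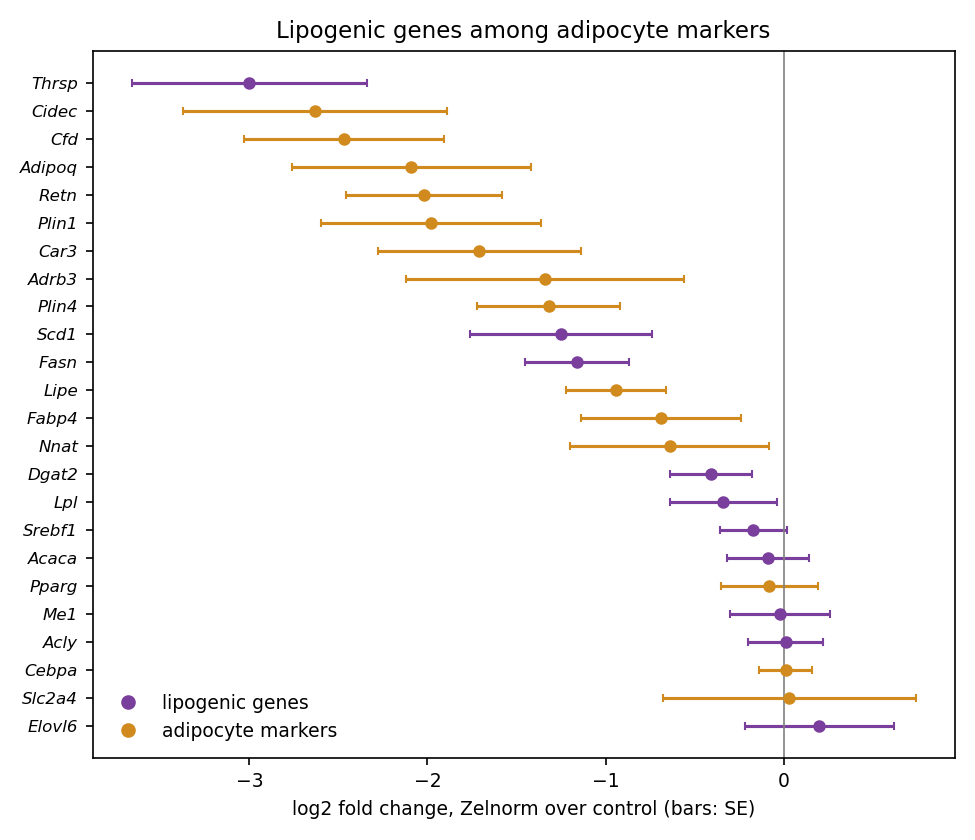
Log2 fold change of Zelnorm over control tumours in the mouse table (points, bars are SE, n = 3 each) for the 10 lipogenic genes and 14 adipocyte markers, sorted by value. Thrsp at -3.00 lies below the lowest marker, Cidec at -2.63, Scd1 at -1.25 and Fasn at -1.16 lie between Plin4 and Lipe, and the other lipogenic genes lie nearer 0, beside Pparg, Cebpa and Slc2a4.

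Markers of other cells that could hold these transcripts were near their limit or overlapped between the groups, apart from a macrophage sum whose separation rested on Lyz2. Of 8 brown fat markers Ucp1, the defining one, had no count and 2 passed the filter, and the summed level was 1.48 to 15.4 CPM in Zelnorm and 7.78 to 9.23 CPM in control tumours. Of 10 sebaceous gland markers 4 passed the filter, and Mc5r, Awat2 and Krt79 did not. Their summed level, mostly that of Soat1 (log2 fold change 0.06, SE 0.18), was 93.9 to 129 CPM in Zelnorm and 99.9 to 115 CPM in control tumours. Of 8 liver markers 3 passed, with sums of 15.1 to 22.6 CPM in Zelnorm and 14.0 to 17.3 CPM in control tumours. Of 12 markers of epidermis and hair follicle 2 passed (Krt5 and Krt14, with log2 fold changes of 0.60, SE 0.73, and 0.29, SE 0.25), with sums of 18.2 to 37.6 and 19.7 to 28.0 CPM in Zelnorm and control tumours. Macrophages, which also make lipoprotein lipase, had 11 of 14 markers higher around a median of 0.13 on the log2 scale, and sums of 5076 to 5407 CPM in Zelnorm and 3872 to 5060.3 CPM in control tumours. Their marker of highest level, Lyz2, which encodes lysozyme, was at 2144 ± 273 CPM in Zelnorm and 1534 ± 243 CPM in control tumours (log2 fold change 0.48, SE 0.20), and C1qa, a complement gene, had 0.06 (SE 0.18). The macrophage sums of MBZ_254 and NC10 were close, at 5076 and 5060.3 CPM. Without Lyz2 the sum of MBZ_254 lay below that of NC10. For comparison, 46.1% of all tested mouse genes lay below 0. edgeR, DESeq2 and limma-voom called 0 of the 14, with 1 at an unadjusted edgeR p under 0.05. Muscle, another source of Lpl, differed within groups, with summed levels of 12 markers of 72.8, 144 and 7429 CPM in MBZ_254, MBZ_257 and MBZ_259 and 447, 3127 and 2319.9 CPM in NC10, NC4 and NC9. The part of these cells in the levels of Lpl was not tested.

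Most other genes of the pathway lay near 0. DESeq2 and limma-voom called 0 genes of each list in this and the next paragraph, and 0 had an unadjusted edgeR p under 0.05 except in lipolysis. Of 16 other enzymes of lipogenesis 8 lay higher and 8 lower, with 0 called by edgeR. Scd2, the desaturase paralog of Scd1, was at 161 ± 28.0 CPM in Zelnorm and 184 ± 25.05 CPM in control tumours (log2 fold change -0.19, SE 0.19), and Acsl4, an acyl-CoA synthetase, had 0.04 (SE 0.23). Of 19 other regulators 14 lay higher and 5 lower, with a median of 0.06 and 0 called by edgeR. Mbtps1, the protease that activates SREBP, had 0.04 (SE 0.19) and Usf2, a factor that binds lipogenic promoters, 0.06 (SE 0.19). Of 10 genes of NADPH supply 8 lay higher, with a median of 0.09 and 0 called. Tkt and Taldo1, enzymes of the pentose phosphate pathway, had 0.14 (SE 0.25) and 0.21 (SE 0.27), with 102960 and 48604 human counts of the same symbols.

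In triglyceride synthesis 12 of 15 measured genes lay lower, around a median of -0.12 on the log2 scale and 0 called. The genes of highest level, Gpat4 and Lpin2, had -0.02 (SE 0.15) and -0.01 (SE 0.20). Gpd1 and Pck1, which supply the glycerol backbone in fat cells, had -1.18 (SE 0.63) and -1.24 (SE 0.82), and were named after their values were seen. Of 12 measured partners of the lipase and of fatty acid uptake 7 lay lower, with a median of -0.04 and 0 called. Sel1l, which helps the lipase mature, had 0.01 (SE 0.17). All 8 measured genes of lipolysis lay lower, with a median of -1.05, 4 at an unadjusted p under 0.05 and 0 called by edgeR. Of all tested mouse genes 46.1% lay below 0 and 1.75% were at an unadjusted edgeR p under 0.05. Mgll and Pnpla2, lipases of stored fat, had -0.45 (SE 0.43) and -0.42 (SE 0.28), and 4 genes of this list are also adipocyte markers here (Lipe, Plin1, Plin4 and Adrb3). In fatty acid oxidation 7 of 16 lay higher and 9 lower, with a median of -0.08 and 0 called. Hadha and Hadhb, the subunits of the mitochondrial trifunctional protein, had -0.04 (SE 0.17) and 0.04 (SE 0.17).

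The mouse genes most like the members, by Pearson correlation over the 6 tumours with the mean of the members, were Cc2d2a (r = 0.982), Lipe (0.982), Pcx (0.979), Rcc2 (0.976), Kctd6 (0.976), Serpina3c (0.971), Cyp2e1 (0.970) and Alas2 (0.966). Lipe encodes hormone-sensitive lipase and Pcx pyruvate carboxylase, which feeds citrate formation in fat cells. Pcx was at 15.6, 16.8 and 17.6 CPM in MBZ_254, MBZ_257 and MBZ_259, against 26.3, 44.1 and 28.9 CPM in NC10, NC4 and NC9. All 8 had NC4 as the highest tumour and all Zelnorm tumours below all control tumours. Among all tested mouse genes, 3.002% had all Zelnorm tumours below all control tumours. The mean of the members, by which the 8 were picked, had both traits itself. Their order thus came largely with the choice, and nothing is read from it. The members did not follow that mean alike. Against the mean of the other members, r was 0.94 for Fasn and 0.85 for Scd1, but 0.13 for Acly, -0.07 for Me1 and -0.28 for Elovl6. The values of all genes in a tumour come from 1 library, with its depth and scaling, so these values over 6 tumours describe the likeness and carry no test.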

How the data were processed

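RNA of 3 Zelnorm and 3 control tumours was sequenced from TruSeq libraries of total RNA, per the labels' protocols. The authors deposited estimated counts, with 1 row per gene, as a human and a mouse table. The builds GRCm38 and GRCh38 and the tools StringTie, HISAT2, edgeR and DESeq2 appear, unversioned, per the submitters' processing notes. The division of reads between species is not stated in the sources used here. Values above 0 were not whole (by over 1e-06) in 38% of cases in the human and 27% in the mouse table, and were rounded. Rows without a name, 574 human and 856 mouse, with 0.407% to 0.518% of a human library and 0.317% to 0.468% of a mouse library, stayed out.

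Both tables were fitted separately, Zelnorm over control, in edgeR 4.0.16 under R 4.3.3 (quasi-likelihood test, two-sided, filterByExpr, TMM, Benjamini-Hochberg, threshold 0.05), and with DESeq2 1.42.0 and limma-voom (limma 3.58.1) as alternatives. SE derives from the F statistic. Levels are CPM of 1 table, on library totals times TMM factors. Log2 CPM used a prior count of 2. The test was also run on counts simulated with the same spread for every gene, which does not show its power at the spread of these tumours. Coordinates, exon lengths and overlaps come from GENCODE M21 (GRCm38). The floor of 3 counts covers counting error only.

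The members and gene lists were chosen with earlier results of these data known. Genes named are the members and their counterparts, the 2 genes of highest mean CPM of each list, genes called by any tool among the lists and the 8 genes most like the members (mean CPM of at least 1, a named gene, a human same-symbol count below 10 times their own). Adipoq, Pparg, Cebpa, Slc2a4, Gpd1, Pck1 and genes named for being absent or shared between lists lay outside this rule and were chosen after their values were seen. A gene that the rule names is not reported here.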

Additional observations from a re-analysis of the deposited data

How the results depend on the processing

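No mouse or human gene was called by edgeR under TMM, RLE scaling, limma-voom or any single tumour left out (0 to 0), nor in the mouse table with counts scaled to both tables or with human counts subtracted. DESeq2 called 6 mouse genes and 1 human gene, and edgeR without the filter on low counts called 2 mouse and 61 human genes. The members' median log2 fold change kept its sign in all 12 alternatives, from -0.39 to -0.10 with single tumours left out, and the number of members lower ran from 6 to 10. Thrsp ran from -3.89 (without MBZ_254) to -2.53 (without NC4), Fasn from -1.39 (human counts subtracted) to -0.74 (without NC4), and Scd1 from -2.43 (SE 1.36, with 0 counts left in MBZ_259) to -0.42 under the same 2 settings. Without NC4 Dgat2 was -0.22, Srebf1 -0.02 and Lpl -0.14. The human values turned sign with single tumours left out for FASN (-0.01 to 0.20), SCD (-0.05 to 0.15), ACACA (-0.12 to 0.07), ACLY (-0.17 to 0.06), ELOVL6 (-0.32 to 0.38) and ME1 (-0.25 to 0.21), and ME1 also with limma-voom (-0.02); the cause was not tested. No paired analysis was possible because the column names carry numbers that no label repeats. Depth limited Thrsp in the Zelnorm tumours (26 counts in all) and the human THRSP and LPL.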

Other observations

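Among fibroblast and preadipocyte markers, Col3a1, a fibrillar collagen, was at 7919 ± 3517 CPM in Zelnorm and 11504 ± 4662 CPM in control tumours (log2 fold change -0.54, SE 0.42), and Col1a2 had -0.30 (SE 0.34).

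Cholesterol synthesis genes of the mouse table, which SREBP-2 controls, lay higher in 13 of 18 cases, with a median log2 fold change of 0.14, 0 called by edgeR, DESeq2 or limma-voom and 0 at an unadjusted edgeR p under 0.05. Hmgcs1, an early enzyme of the pathway, had 0.20 (SE 0.26), with 24642 human counts of the same symbol. The endothelial marker of highest level, Pecam1, was at 272 ± 73.4 CPM in Zelnorm and 292 ± 76.4 CPM in control tumours (log2 fold change -0.10, SE 0.26). The part of human reads in these values was not tested.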
